A study of Mus musculus with 7 samples.

Results

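Estradiol-driven differentiation with zinc left unrestricted was followed in G1E-ER4 cells, a mouse erythroid progenitor line, by comparing messenger RNA at 24 h of estradiol with messenger RNA before estradiol. The comparison used 4 of the 7 libraries of the study, chosen by their labels: 1 from undifferentiated cells at 0 h and 3 from differentiating control cells at 24 h. Values are TPM, a unit in which reads are divided by the length of the gene and scaled so that all genes of a library add up to a fixed sum. Where a gene is given as going from one value to 3 others, these are the 0 h library and then control replicates 1, 2 and 3. A gene entered with a mean of 1 TPM or more on either side, which kept 11906 of 55367 gene symbols. The series asked how zinc is handled during erythroid differentiation, and its 3 libraries given the chelator DTPA at 50 µM together with estradiol served here only to estimate the spread between replicates.

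Cells of all groups carried the same alleles and grew in the same medium. G1E-ER4 is a clonal line from embryonic stem cells whose endogenous Gata1 was disrupted, and it expresses an introduced GATA1 joined to the hormone-binding part of the estrogen receptor. That fusion protein stays inactive until estradiol is added. The medium was Iscove's with 15% fetal bovine serum, 2 U/mL erythropoietin and conditioned medium containing Kit ligand, under 5% CO2, and the 24 h cells received 100 nM β-estradiol. Kit ligand and erythropoietin, the growth factors of early and late red cell precursors, were thus present at both times. No library of cells held for 24 h without estradiol was compared, so the hormone and the time in culture cannot be told apart.

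GATA1 is a zinc finger transcription factor that red cell precursors need to mature. It works with FOG1 (encoded by Zfpm1), TAL1, LMO2 and LDB1, switches on globin, heme and membrane genes, and shuts off genes of earlier progenitors, among them Gata2, Kit and Myc. Maturing erythroblasts leave the cell cycle, stop making ribosomes, fill with hemoglobin, clear their mitochondria by autophagy, and condense and expel the nucleus.

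Erythroid genes were abundant at both times, with Gata1, Klf1, Epor and globins present in all 4. Gata1 (chromosome X, 7959260 to 7978071, minus strand; positions throughout are GENCODE M21 on GRCm38, mm10) was at 2969 TPM at 0 h and 3261, 3075 and 3156 TPM in the controls, slightly higher in every control, and did not pass the test (log2 change 0.09 ± 0.104, SE; limma adjusted p = 0.453). Reads of the introduced fusion can be counted in this row, so it does not show endogenous Gata1, and the Esr1 row held at most 0.01 TPM in these libraries. Of 20 myeloid and mast cell markers, 10 were at 0 in all 4 libraries, including Mpo, Lyz2 and Itgam, and the list summed to 20.4 TPM at 0 h and 3.72 to 4.05 TPM in the controls. None of 15 lymphoid markers was high enough to test, and their sum was 0.46 to 1.20 TPM in every library, with Pax5 and Il7r at 0. Ptprc, the pan-leukocyte gene CD45, and Cd34 were listed at 0 throughout.

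The libraries were alike in depth. Estimated from the steps between low values, they held 17.6 M reads at 0 h and 17.7 to 18.6 M in the controls, so that 1 read in a gene of 2 kb was worth 0.0823 to 0.0857 TPM. Between 10904 and 11268 genes reached 1 TPM, globins took 0.913% of the TPM at 0 h and 4.71% to 5.11% in the controls, and the mitochondrial genome took 11.4% to 13.0% in all 4. The single 0 h library has no spread of its own and was assumed to vary like the replicated groups. The p-values measure only the spread between samples labelled biological replicates. In bulk RNA, fewer cells of a type and less RNA per cell cannot be told apart, and TPM are shares of a total, so absolute RNA per cell was not measured.

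A large part of the transcriptome differed between the 2 times. Of the 11906 genes tested, 1794 rose (15.1%) and 2894 fell (24.3%) by at least 2-fold at a limma adjusted p under 0.05, together 39.4%. These shares are the background against which the counts of gene groups are read. On the log2(TPM + 1) scale the median change over all genes was -0.22, with quartiles of -1.01 and 0.60. At 24 h all 3 controls were above the 0 h library in 4529 genes and below it in 6275, and in 1102 genes (9.26%) the 0 h value lay within the range of the controls. The median SD among the 3 controls was 0.0851 on the log2 scale.

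Large changes were spread over both directions. At least 4-fold, 596 genes rose and 923 fell, at least 8-fold 179 and 262, at least 16-fold 62 and 77, and at least 32-fold 27 and 19. Scaling moved the balance more than the number of calls. Rises made up 38.3% of the calls on the deposited scale, 45.9% after median-of-ratios scaling, which shifted the median of all genes to -0.06, and 48.5% after quantile normalization, which shifted it to -0.03. Changes near 2-fold are therefore best read against the median of -0.22, and no called gene changed sign under either scaling.

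**Figure D1:**
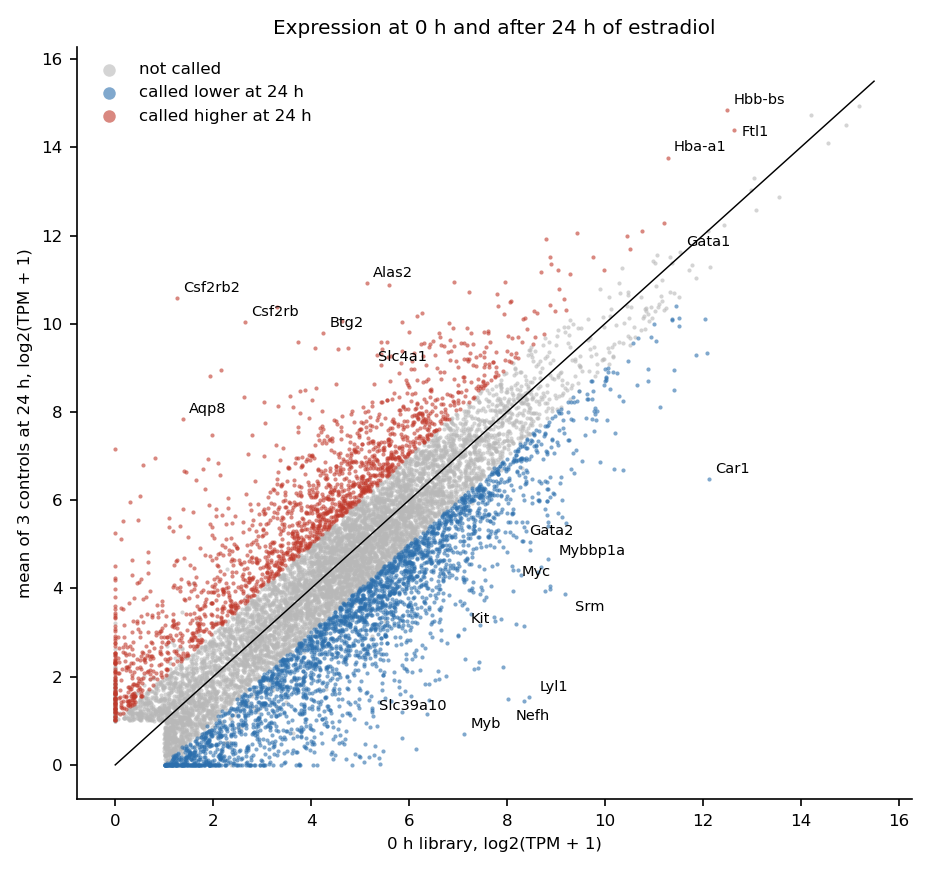
Each point is 1 of the 11906 genes tested, with log2(TPM + 1) in the 0 h library on the x axis and log2(TPM + 1) of the mean of the 3 controls at 24 h on the y axis; red points are the 1794 genes called higher, blue points the 2894 called lower, grey points the 7218 not called, and the line marks equal values. Csf2rb2, Csf2rb and Alas2 lie far above the line, and Car1, Lyl1 and Myb far below it.

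The largest rise was in the receptor genes Csf2rb2 and Csf2rb, neighbours on chromosome 15 that encode closely similar beta chains of cytokine receptors. Csf2rb2 (chromosome 15, 78282507 to 78305721, minus strand) rose from 1.39 TPM to 1537, 1395 and 1653 TPM, a log2 change of 9.32 ± 0.105 (SE; limma adjusted p = 1.62e-07). Csf2rb (78325752 to 78353847, plus strand) rose from 5.26 TPM to 1064, 979.6 and 1115 TPM, a log2 change of 7.39 (limma adjusted p = 2.02e-07). Reads could be split between copies so alike, but both rows went from a few TPM to among the more abundant messages.

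Several of the other large rises were in transporters and genes of the maturing cell. Slc38a5, a glutamine and serine transporter, rose from 3.47 TPM to 497, 487 and 502 TPM. Aqp8, a water and peroxide channel, rose from 1.61 TPM to 235, 226 and 226 TPM. Tubb1, the beta tubulin of platelets, rose from 0.48 TPM to 109.8, 111 and 109.9 TPM. In each of these the 3 controls lay within a few percent of each other and far above the 0 h value, with log2 fold changes of 6.79, 6.46 and 6.23.

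Other large rises were in genes less tied to red cells. Rogdi, whose human counterpart is mutated in a syndrome of brain and tooth enamel, rose from 8.81 TPM to 1332, 1368 and 1304 TPM, 152 times higher by the mean. Btn1a1, the butyrophilin of milk fat globules, rose from 2.83 TPM to 437, 436 and 466 TPM. Tmcc2 rose from 12.3 TPM to 789, 796 and 716 TPM. Ypel3 rose from 5.22 TPM to 323, 332 and 311 TPM. Dhrs3, a retinaldehyde reductase, rose from 0.23 TPM to 61.7, 59.1 and 62.0 TPM. Tmem184a and the non-coding gene Gm26616 completed the 15 largest rises together with Alas2, Btg2 and Mir451a; exons of Gm26616 overlap 640 bp of Ppp1r15b on the other strand.

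The row of the erythroid microRNA gene Mir451a (chromosome 11, 78073170 to 78073241, plus strand) was listed at 0 at 0 h and at 162, 121 and 143 TPM in the controls (limma adjusted p = 1.86e-06). Its neighbour Mir144, part of the same primary transcript, rose from 2.56 TPM to 69.8, 70.1 and 85.5 TPM, a log2 change of 4.41 (limma adjusted p = 4.52e-05). Mir451b lies on the other strand of the same 72 bp and was at 0. The libraries were made from polyadenylated RNA, so these rows count reads over the hairpins and do not measure the mature microRNAs. The Mir451a row, of 72 bp, rests on an estimated 71, 51 and 60 reads in the 3 controls. The mature sequences, from RefSeq on GRCm38.p6, are shown because the pair is a textbook GATA1 target of red cells; capitals mark the seed, bases 2 to 8, which the 2 do not share.
miR-451a: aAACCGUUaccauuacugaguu
miR-144-3p: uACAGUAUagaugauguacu

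The largest falls were in genes of progenitors and of other functions. Lyl1 (chromosome 8, 84701457 to 84704715, plus strand), a TAL1-like transcription factor of early progenitors, fell from 349 TPM to 2.51, 2.02 and 1.18 TPM, a log2 change of -6.94 ± 0.294 (SE; limma adjusted p = 6.34e-06). Myb (chromosome 10, 21124935 to 21160984, minus strand), which keeps progenitors dividing, fell from 139 TPM to 0.68, 0.65 and 0.52 TPM, a log2 change of -6.44 ± 0.102 (SE; limma adjusted p = 3.38e-07). Nefh, a neurofilament subunit gene, fell from 324 TPM to 1.52, 1.85 and 1.8 TPM. All 3 controls held under 1% of the 0 h value for these genes.

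Car1 (chromosome 3, 14766216 to 14808368, minus strand), a carbonic anhydrase gene and one of the more abundant messages at 0 h, fell from 4453 TPM to 87.5, 82.6 and 95.4 TPM, a fall of 50.3 times by the mean. Srm, which encodes spermidine synthase, fell from 578 TPM to 14.7, 12.9 and 13.4 TPM. Flna, the actin crosslinker filamin A, fell from 169.8 TPM to 3.55, 3.35 and 3.76 TPM. Ptpn7, a phosphatase of blood cells, fell from 241 TPM to 3.24, 4.5 and 3.28 TPM. Log2 fold changes were -5.64, -5.31, -5.23 and -5.71. Ces2g, Dctd, Mmp14, Tfap4, Lgals9, Nab2, Ptprcap and Gm6093 completed the 15 largest falls, with log2 fold changes of -6.55 to -5.17; Ptprcap shares 1224 bp of exon with Rps6kb2 and Nab2 1050 bp with Gm16229 on the other strand.

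Some genes were listed at 0 on one side. There were 8 at 0 at 0 h and at 10 TPM or more in every control, among them Mir451a, Hbb-y, the riboflavin transporter gene Slc52a3 (40.3, 35.3 and 36.3 TPM in the controls), the kinase gene Ptk6 (18.6, 15.9 and 18.7) and Creb3l3 (17.0, 17.6 and 17.6). There were 6 at 0 in every control and at 10 TPM or more at 0 h, among them the integrin gene Itgal (12.4 TPM at 0 h), the lectin gene Clec4d (11.9) and 2 small nucleolar RNA genes. At the other end, 10 genes of at least 50 TPM on both sides had the smallest changes. They included the mitochondrial channel genes Vdac1, at 349 TPM at 0 h and 340.1, 347 and 359 TPM in the controls, and Vdac3, and the splicing factor gene Tra2a, at 56.0 TPM at 0 h and 54.6, 56.4 and 57.1 TPM in the controls.

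The list of the 10 most abundant messages changed little, and globins and ferritin climbed within it. At 0 h it held 6 rows of the mitochondrial genome, led by mt-Nd2 at 37199 TPM at 0 h and 29779, 29501 and 34272 TPM in the controls, with Eef1a1, a translation elongation factor, Rplp1, a ribosomal protein, Ftl1 and Hbb-bs. In the controls Hba-a1 took the place of Rplp1, which was at 8684 TPM at 0 h and 6710.5, 6508 and 5241 TPM in the controls. Hbb-bs, at 24 h, was second only to mt-Nd2 by the mean in its own list of 10, and Eef1a1 was at 12029 TPM at 0 h and 7359.9, 7473 and 7749 TPM in the controls, lower in every control and under 2-fold. Eef1a1 and Rplp1 passed 2-fold downward under quantile normalization.

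Adult globin messages rose about 5-fold to 6-fold. The alpha genes Hba-a1 and Hba-a2 are near-identical copies and are best read as a sum, which was 2935 TPM at 0 h and 17926, 19030 and 16501 TPM in the controls, 6.07 times higher by the mean. Hbb-bs with Hbb-bt, the adult beta pair, summed to 6190 TPM at 0 h and 32917, 31995 and 30494 TPM in the controls, 5.14 times higher. The ratio of alpha to beta was 0.474 at 0 h and 0.545, 0.595 and 0.541 in the controls. Globin messages were thus already among the more abundant at 0 h, and the 3 controls lay far above them.

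All 4 adult globin rows rose singly. Hba-a1 (chromosome 11, 32283511 to 32284465, plus strand) rose from 2488 TPM to 14165, 15097 and 12589.9 TPM (log2 change 2.48 ± 0.137, SE; limma adjusted p = 1.79e-05). Hbb-bs (chromosome 7, 103826534 to 103828096, minus strand) rose from 5776 TPM to 29941, 30395 and 28189 TPM (log2 change 2.35 ± 0.171, SE; limma adjusted p = 5.35e-05). The Hbb-bt row rose from 414 TPM to 2976, 1600.4 and 2305 TPM and passed narrowly (limma adjusted p = 0.0273). With control replicate 1 left out its limma adjusted p was 0.0646, and with control replicate 3 left out 0.0611, so the call was lost.

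Embryonic globins were low throughout and rose as well. Hbb-bh1, an embryonic beta-like gene, rose from 5.8 TPM to 50.2, 51.5 and 59.4 TPM, a log2 change of 3.00 (limma adjusted p = 2.65e-06). Hbb-y and the embryonic alpha-like gene Hba-x were listed at 0 at 0 h and at 14.8, 14.1 and 15.9 TPM and 8.42, 6.58 and 6.75 TPM in the controls. Together the embryonic rows summed to 72.1 to 82.1 TPM at 24 h, against 46995 to 51026 TPM for the adult rows.

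Heme synthesis rose most at its first, erythroid-specific step. Of its 9 enzymes, 5 rose and 1 fell, and the median log2 fold change was 1.31 where that of all genes was -0.22. Alas2 (chromosome X, 150547375 to 150570638, plus strand), the erythroid form of the rate-limiting enzyme, rose from 34.2 TPM to 1913, 2007 and 1892 TPM, 56.7 times higher by the mean (log2 change 5.78 ± 0.0497, SE; limma adjusted p = 1.13e-07). Alas1, the form used in other tissues, was low and went the other way, at 8.99 TPM at 0 h and 3.2, 3.08 and 3.24 TPM in the controls (limma adjusted p = 0.000111); its log2 fold change of -1.26 was -0.88 under quantile normalization and did not then reach 2-fold. Alas2 stood above Alas1 already at 0 h, and the gap widened.

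The later steps moved less. Ppox, the enzyme before the last, rose from 23.3 TPM to 191, 187 and 188 TPM; it shares 791 bp of exon with B4galt3 on the other strand. Fech, which inserts the iron, rose from 75.8 TPM to 241, 240.0 and 248.8 TPM. Uros and Urod, in the middle of the pathway, had log2 fold changes of 1.37 and 1.31. Enzymes that did not reach 2-fold were already abundant at 0 h. Alad was at 652 TPM at 0 h and 1035, 1033 and 980.2 TPM in the controls. Cpox was at 271 TPM at 0 h and 362, 360.3 and 378 TPM in the controls. Both were above the 0 h value in every control.

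Of 16 genes of heme transport and breakdown, 7 rose, 2 fell and 7 did not pass, with a median of 0.81. Abcb10, a mitochondrial transporter of heme-making cells, rose from 75.7 TPM to 1201, 1192 and 1218 TPM. Tmem14c, which helps porphyrin reach the matrix, rose from 694 TPM to 4478, 4296 and 4109 TPM. Blvrb, a biliverdin reductase abundant in red cells, rose from 478 TPM to 2703, 2706 and 2392 TPM. Hmox1, the inducible heme oxygenase that breaks heme down, rose from 10.5 TPM to 110.1, 107 and 104 TPM, while Hmox2 was at 54.5 TPM at 0 h and 62.6, 61.6 and 63.4 TPM in the controls and did not pass. Slc25a38 and Slc25a39, mitochondrial carriers that heme synthesis needs, had log2 fold changes of 1.54 and 1.17, and the heme exporter gene Flvcr1 was at 25.04 TPM at 0 h and 41.5, 42.2 and 44.8 TPM in the controls without reaching 2-fold. The heme importer gene Slc48a1 fell from 530.1 TPM to 151, 144.3 and 156 TPM.

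Iron genes split. Of 19 tested, 5 rose and 4 fell, beside 15.1% and 24.3% of all genes. The median was -0.33, close to that of all genes. Those that rose included Ftl1, the ferritin light chain and one of the most abundant messages, at 6354 TPM at 0 h and 21747, 22547 and 20328 TPM in the controls. Ncoa4, which delivers ferritin to autophagy, rose from 21.6 TPM to 218, 212 and 237 TPM. Slc25a37, the mitochondrial iron importer mitoferrin 1, rose from 61.1 TPM to 203, 200.2 and 212 TPM. Glrx5, of iron-sulfur cluster assembly, rose from 185 TPM to 634, 647 and 544 TPM. Tfrc, the transferrin receptor, rose from 368 TPM to 728, 713 and 791 TPM, just past 2-fold (log2 change 1.01, limma adjusted p = 8.24e-05); it was 0.97 without control replicate 3, 0.93 under quantile normalization and 0.99 when mitochondrial genes were left out of the total, and was not called then.

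The iron genes that fell included Tfr2, Slc11a2 and Trf. Tfr2, the second transferrin receptor and a partner of the erythropoietin receptor, fell from 112 TPM to 14.7, 13.6 and 12.2 TPM. Slc11a2, the endosomal iron transporter DMT1, fell from 64.3 TPM to 21.98, 23.6 and 22.6 TPM. Trf, transferrin itself, was at 1.38 TPM at 0 h and at 0 in the controls. Ferritin heavy chain, Fth1, was at 2085 TPM at 0 h and 2627, 2709 and 2629 TPM in the controls, above the 0 h value in every control but under 2-fold.

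Red cell membrane genes moved both ways. Of 14 genes of the band 3 complex and the blood groups, 5 rose, 4 fell and 5 did not pass. The median was 0.16, and of all genes 15.1% rose and 24.3% fell. Slc4a1 (chromosome 11, 102348824 to 102366203, minus strand), the anion exchanger band 3, rose from 45.6 TPM to 775, 768 and 768 TPM, a log2 change of 4.05 ± 0.0470 (SE; limma adjusted p = 1.62e-07). Gypc rose from 139 TPM to 583, 586 and 595 TPM. Ank1, the ankyrin that ties band 3 to spectrin, rose from 80.6 TPM to 265, 253 and 255 TPM. Icam4, a red cell adhesion molecule, rose from 29.3 TPM to 142, 149 and 123 TPM; all 1110 bp of its exons overlap Gm47079 on the other strand.

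Rhag and Kel went the other way. Rhag, the Rh-associated glycoprotein, fell from 273 TPM to 52.96, 48.1 and 54.1 TPM, a log2 change of -2.38 (limma adjusted p = 2.68e-06), and Kel fell from 37.9 TPM to 12.5, 11.4 and 12.9 TPM. Slc2a1, the glucose transporter GLUT1, fell with them, at 49.6 TPM at 0 h and 19.1, 20.2 and 20.3 TPM in the controls. Rhd, at 26.2 TPM at 0 h and 22.2, 19.3 and 18.6 TPM in the controls, and Xk, at 94.7 TPM at 0 h and 59.2, 54.6 and 65.6 TPM in the controls, were lower in every control and did not pass. Epb42, protein 4.2 of the band 3 complex, was at 7.37 TPM at 0 h and 7.84, 8.39 and 7.89 TPM in the controls and did not pass. Ermap, an erythroid adhesion gene, was at 284 TPM at 0 h and 509, 485 and 548 TPM in the controls; its log2 fold change of 0.85 passed 2-fold under median-of-ratios scaling.

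Spectrin and actin skeleton genes rose or did not pass. Of 12 genes, 7 rose, none fell and 5 did not pass, and the median was 1.36. Dmtn, dematin, an actin bundler, rose from 1.74 TPM to 101, 98.8 and 96.9 TPM. Sptb, beta spectrin, rose from 113 TPM to 1077, 1033 and 1015 TPM. Tspan33, Add1, Mpp1 and Epb41, encoding a tetraspanin, adducin, p55 and protein 4.1, had log2 fold changes of 2.72, 2.26, 2.24 and 1.71. Actb, cytoplasmic actin, was at 1478 TPM at 0 h and 1325, 1334 and 1325 TPM in the controls.

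**Figure D2:**
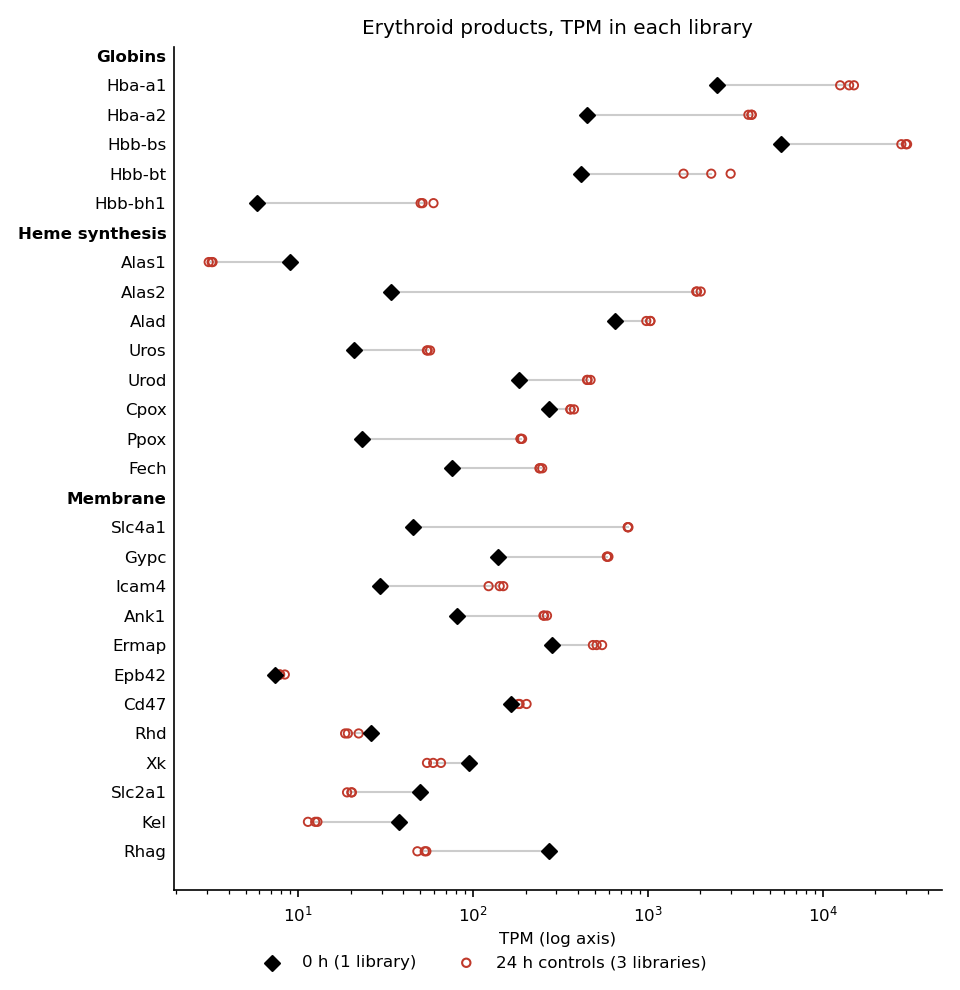
TPM of globin, heme synthesis and membrane genes on a log axis, with a black diamond for the 0 h library and open circles for each of the 3 controls at 24 h, joined by a line. Alas2 and Slc4a1 show the widest gaps, while Rhag, Kel, Slc2a1, Xk, Rhd and Alas1 have their circles to the left of the diamond.

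Short GATA sequences stand in the promoters of some of these genes. RefSeq promoters on GRCm38.p6, 250 bases before to 50 bases after the start, were matched for 7547 of 9288 tested protein-coding genes (81.3%) and searched on both strands. A GATA hexamer (AGATAA, the same with T as its first letter, or either of these ending in G) was found in 20.6% of genes that rose, 16.7% of genes that fell and 18.3% of genes not called, beside 18.3% of all those matched and 30.2% of all 27025 promoters of the table. The share was higher among genes with large rises: 34.5% (40 of 116 matched) of those higher by at least 8-fold, beside 20.1% (37 of 184) of those lower by at least 8-fold. In the list of band 3 complex and blood group genes described above 6 of 9 matched promoters held one, and of the heme synthesis enzymes 2 of 7. Members of the band 3 list moved both ways, and Epb42, which holds a hexamer, did not pass. Base composition differed as well. The median number of CpG (a C followed by a G) per promoter was 22 over all those matched. It was 16 in genes higher by at least 8-fold, 19 in those lower by at least 8-fold and 8 in the band 3 list. Whether composition accounts for the shares was not tested. A match is a description of letters, not a bound site, and these shares were not tested. The 250 bases before the start are shown, 5′ to 3′ on the gene's strand, for 4 genes that rose and hold a hexamer, chosen for their place in the account above; capitals mark the hexamer or its reverse complement. They are Csf2rb2 at chr15:78305722-78305971 (minus strand), Alas2 at chrX:150547167-150547416 (plus strand), Hba-a1 at chr11:32283422-32283671 (plus strand) and Hbb-bs at chr7:103827929-103828178 (minus strand). These are starts as RefSeq gives them, which can differ from the starts of the GENCODE genes.
Csf2rb2: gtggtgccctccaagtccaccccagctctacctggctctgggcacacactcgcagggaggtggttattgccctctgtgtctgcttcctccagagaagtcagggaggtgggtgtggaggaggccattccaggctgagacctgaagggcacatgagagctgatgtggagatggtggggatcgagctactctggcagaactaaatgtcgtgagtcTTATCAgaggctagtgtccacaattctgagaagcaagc
Alas2: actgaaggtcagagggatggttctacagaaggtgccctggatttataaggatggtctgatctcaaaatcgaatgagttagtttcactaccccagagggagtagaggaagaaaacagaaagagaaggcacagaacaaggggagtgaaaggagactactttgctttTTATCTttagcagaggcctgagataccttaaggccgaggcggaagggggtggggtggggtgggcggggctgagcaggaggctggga
Hba-a1: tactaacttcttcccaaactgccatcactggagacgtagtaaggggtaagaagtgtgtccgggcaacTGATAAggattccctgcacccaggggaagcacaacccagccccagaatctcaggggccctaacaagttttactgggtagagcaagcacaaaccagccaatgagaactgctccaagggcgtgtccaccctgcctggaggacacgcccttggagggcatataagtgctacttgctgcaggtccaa
Hbb-bs: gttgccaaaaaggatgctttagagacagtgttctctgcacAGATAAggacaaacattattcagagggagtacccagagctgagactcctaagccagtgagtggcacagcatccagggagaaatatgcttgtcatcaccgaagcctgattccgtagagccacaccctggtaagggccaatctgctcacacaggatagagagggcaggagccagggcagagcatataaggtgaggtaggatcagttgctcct
The first letter of the hexamer stands 38 bases before the start in Csf2rb2, 86 in Alas2, 183 in Hba-a1 and 210 in Hbb-bs.

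Erythroid transcription factors numbered 27, of which 7 rose and 7 fell, beside 15.1% and 24.3% of all genes. Their median was 0.28. Among the core partners of GATA1, the FOG1 gene rose and the LDB1 gene fell. Zfpm1, which encodes FOG1, rose from 245 TPM to 1277, 1239 and 1049 TPM, a log2 change of 2.27 ± 0.140 (SE; limma adjusted p = 2.75e-05). Tal1 was at 265 TPM at 0 h and 239, 234 and 237 TPM in the controls. Lmo2 was at 362 TPM at 0 h and 310.0, 305 and 324 TPM in the controls. Gfi1b, a repressor of red cell and platelet precursors, was at 420.3 TPM at 0 h and 514, 508 and 508 TPM in the controls; none reached 2-fold. Ldb1, the bridging factor of the complex, fell from 224 TPM to 103, 101 and 95.3 TPM.

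Other erythroid factors moved both ways. Klf1, the erythroid Krüppel-like factor, was at 437 TPM at 0 h and 869, 871 and 701 TPM in the controls. Nfe2, the p45 subunit of NF-E2, was at 245 TPM at 0 h and 462, 468 and 467 TPM in the controls; both stayed just under 2-fold (0.89 and 0.92 on the log2 scale) and passed it under median-of-ratios scaling. Bach1, a heme-sensing repressor, rose from 15.2 TPM to 304, 304 and 310.2 TPM, and its partners Mafk and Mafg had log2 fold changes of 3.06 and 1.16; Mafk shares 169 bp of exon with Tmem184a on the other strand. Foxo3, which drives red cell antioxidant and autophagy genes, rose from 54.2 TPM to 219, 208 and 206 TPM. Klf13 rose from 18.4 TPM to 103, 99.6 and 102 TPM. Bcl11a, a repressor of embryonic globin genes, fell from 55.4 TPM to 6.54, 6.3 and 6.67 TPM. Sox6, which acts with it, fell from 3.67 TPM to 0.19, 0.12 and 0.13 TPM. Hemgn, hemogen, fell from 136 TPM to 32.8, 30.3 and 34.3 TPM.

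Most genes of earlier progenitors fell. Textbook GATA1 targets were listed with these results known, so their direction is no independent evidence: of 20 listed as activated 13 rose, none fell and 7 did not pass, and of 10 listed as repressed 9 fell, none rose and 1 did not pass. Of 17 progenitor genes, 12 fell, 1 rose and 4 did not pass, and the median log2 fold change was -2.49. Kit, the receptor of the Kit ligand in the medium, fell from 138 TPM to 7.24, 7.35 and 7.64 TPM, a log2 change of -4.05 ± 0.0554 (SE; limma adjusted p = 2.14e-07). Gata2, the GATA factor of progenitors, fell from 319.7 TPM to 33.3, 34.0 and 30.9 TPM (log2 change -3.25, limma adjusted p = 3.07e-06). Myc fell from 474 TPM to 15.0, 14.7 and 14.9 TPM (log2 change -4.90, limma adjusted p = 1.98e-07). By the means, Kit fell 18.7 times and Myc 31.8 times, and Lyl1 and Myb, given above, fell further. The values in every control lay far below the 0 h value for all of these.

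The remaining members did not all follow. Rgs18, a regulator of G protein signals, fell from 37.99 TPM to 0.08, 0.25 and 0.17 TPM. Cd44, an adhesion receptor, fell from 66.2 TPM to 2.82, 2.91 and 4.14 TPM. Hhex, a homeobox factor, fell from 41.6 TPM to 10.7, 11.6 and 10.7 TPM. Spi1, which encodes the myeloid factor PU.1 and is antagonistic to GATA1, was at 13.3 TPM at 0 h and 14.2, 14.3 and 12.2 TPM in the controls and did not pass. Runx1 was at 26.5 TPM at 0 h and 52.95, 55.1 and 51.0 TPM in the controls, just under 2-fold (0.97 on the log2 scale), and passed once globin genes were left out of the total and under both other scalings. Fli1, a megakaryocytic factor, rose from 10.9 TPM to 25.1, 23.6 and 28.7 TPM, while most other megakaryocyte markers were low: of 10 tested, 6 fell and 2 rose, Fli1 and Tubb1, and 8 of the 20 markers looked up, Vwf and Ppbp among them, were at 0 in all 4 libraries.

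More partners and competitors of MYC rose than fell. Of 10 genes of the network, 5 rose, 2 fell and 3 did not pass, with a median of 0.59. Mxd1, which competes with MYC for their common partner MAX, rose from 7.25 TPM to 128, 124 and 129 TPM, a log2 change of 3.95 (limma adjusted p = 1.62e-07). Mxd4 rose from 4.19 TPM to 28.5, 28.4 and 26.7 TPM. Max itself rose from 106 TPM to 236, 235 and 230.2 TPM. Mxi1 rose from 14.8 TPM to 31.3, 32.9 and 30.1 TPM, just past 2-fold. Mxd3, the member found in dividing cells, fell from 8.71 TPM to 1.11, 0.8 and 1.52 TPM. Mnt was at 42.9 TPM at 0 h and 28.5, 25.3 and 21.6 TPM in the controls and did not pass. Mxd3 shares 105 bp of exon with Prelid1. At 0 h the Myc row was the highest of the network, and at 24 h it lay below Max, Mxd1, Mlx, Mlxip, Mxi1, Mxd4 and Mnt.

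**Figure D3:**
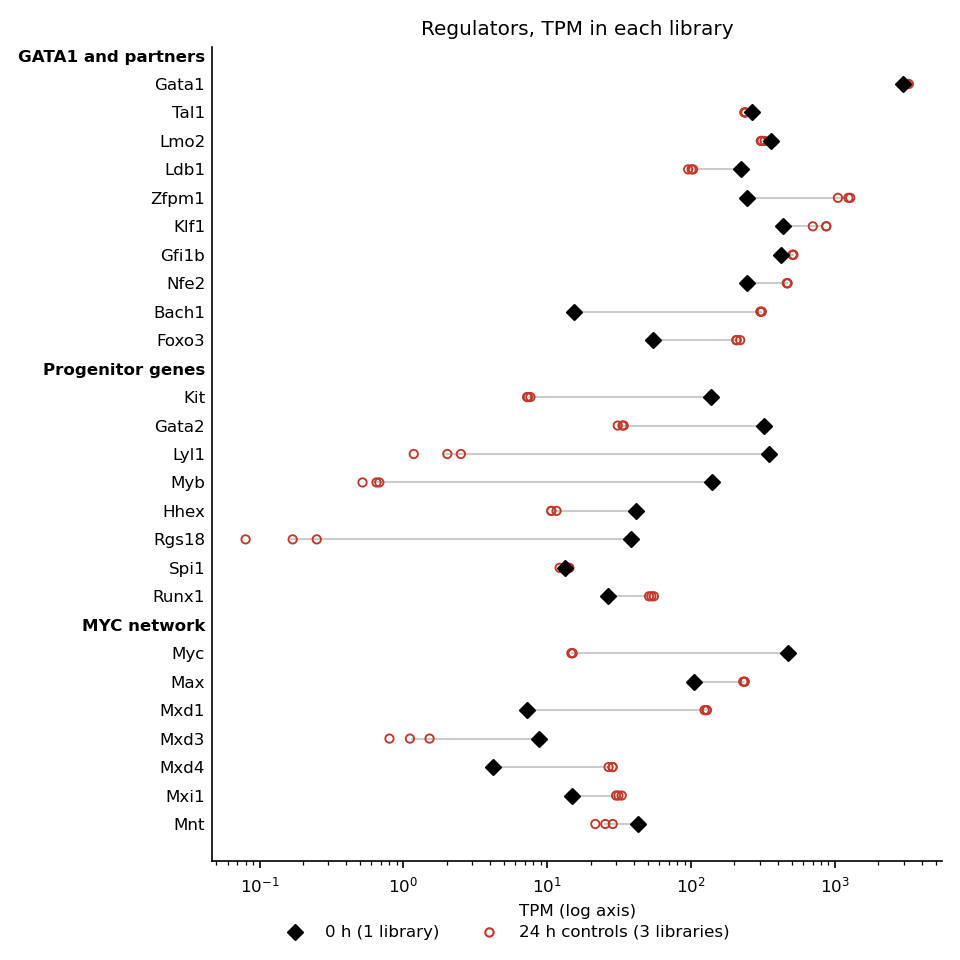
TPM of transcription regulators on a log axis, with a black diamond for the 0 h library and open circles for each of the 3 controls at 24 h. Gata1, Tal1 and Lmo2 have circles close to the diamond, the progenitor genes from Kit to Rgs18 and Myc have circles far to the left, and Bach1 and Mxd1 have circles far to the right.

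Most ribosome biogenesis genes fell. Of 38 members tested, 35 fell, none rose and 3 did not pass, with a median log2 fold change of -2.70, where 24.3% of all genes fell. Npm1, nucleophosmin, fell from 2727 TPM to 486, 487 and 521 TPM. Ncl, nucleolin, fell from 1177 TPM to 180.4, 180.1 and 188 TPM. Fbl, the methylase fibrillarin, fell from 397 TPM to 71.5, 72.8 and 66.7 TPM. Mybbp1a, a nucleolar protein, fell most of the list, at 455 TPM at 0 h and 24.1, 23.8 and 25.4 TPM in the controls (log2 change -4.17, limma adjusted p = 1.38e-06). Polr1a, the largest subunit of RNA polymerase I, fell from 61.5 TPM to 3.76, 2.92 and 3.4 TPM. Polr1b, the next largest, fell from 75.9 TPM to 5.72, 5.94 and 5.1 TPM. The members that did not pass were Nop10 and Rrn3, which were higher in every control, and Pes1, at 270.4 TPM at 0 h and 161, 161 and 165 TPM in the controls.

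Ribosomal protein messages moved less than the factors that assemble ribosomes. Of 61 tested, 23 fell, none rose and 38 did not pass, with a median of -0.91. Together they made up 105047 TPM at 0 h and 62901 to 67058 TPM in the controls. Rpl12 fell from 884 TPM to 262, 259 and 261 TPM. Rps12 fell from 1097 TPM to 362, 378 and 363 TPM. Both were among the largest falls of the list, whereas Rpl28 was higher in every control, at 2153 TPM at 0 h and 3126, 3120.4 and 2803 TPM in the controls, and Rpl23a was at 2652 TPM at 0 h and 2795, 2698 and 2532 TPM in the controls. Many members lie near 2-fold, so the count depends on scaling: 15 fell under median-of-ratios scaling. Many ribosomal protein genes have near-identical pseudogenes, and reads may be split among them.

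Some aminoacyl-tRNA synthetase genes fell too. Of 20, 7 fell, none rose and 13 did not pass, where 24.3% of all genes fell and 15.1% rose. The median was -0.89. Gars fell from 365 TPM to 88.0, 83.0 and 92.5 TPM. Eprs fell from 111 TPM to 30.0, 29.7 and 32.2 TPM, while Aars, at 172 TPM at 0 h and 302, 297 and 303 TPM in the controls, was higher in every control without reaching 2-fold.

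**Figure D4:**
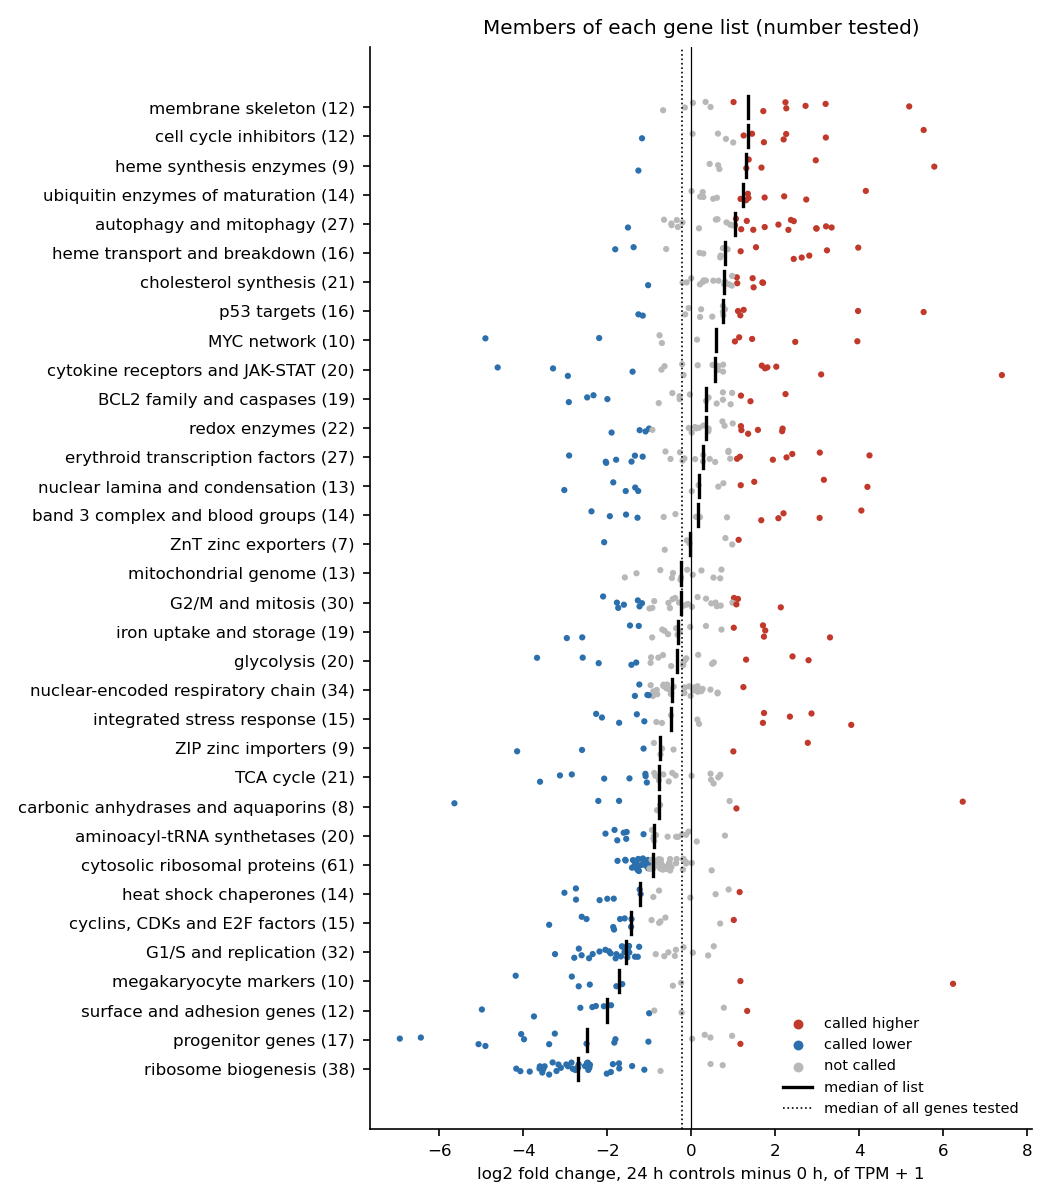
Log2 fold change on the log2(TPM + 1) scale, 24 h controls minus 0 h, of the tested members of each gene list, with red points for genes called higher, blue for genes called lower and grey for genes not called; the thick bar is the median of the list, the dotted line the median of all genes tested (-0.22), and the number in parentheses counts the members tested. Ribosome biogenesis has the lowest median, -2.70, the membrane skeleton the highest, 1.36; lists with fewer than 7 tested members, reference genes and the lists of textbook GATA1 targets are not drawn.

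Most genes of DNA replication fell. Of 32 genes of G1/S and replication, 23 fell, none rose and 9 did not pass, with a median of -1.56. All 6 subunits of the MCM helicase that unwinds DNA fell. Mcm6 fell from 490.4 TPM to 69.1, 68.6 and 73.1 TPM (log2 change -2.79, limma adjusted p = 8.88e-07). Mcm4 fell from 364 TPM to 67.9, 62.7 and 69.3 TPM. Mcm5 fell from 538 TPM to 195, 186 and 197 TPM, and Mcm2, Mcm3 and Mcm7 had log2 fold changes of -1.24, -1.65 and -1.52. Cdt1, which loads the helicase at origins, fell from 148 TPM to 15.9, 13.9 and 14.4 TPM. Pcna, the sliding clamp, fell from 439 TPM to 86.6, 84.7 and 85.0 TPM. Uhrf1, which maintains DNA methylation, fell from 292 TPM to 44.3, 45.4 and 44.5 TPM. Cdc6, the other loader, was higher in every control, at 84.2 TPM at 0 h and 118, 124 and 125 TPM in the controls, under 2-fold.

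An E2F-type octamer (TTTCGCGC, TTTGGCGC, TTTGCCGC or TTTCCCGC, on either strand, where neighbouring matches may overlap) stood in 11 of 26 matched promoters of the replication list (42.3%; 26 of 32 members matched), beside 4.77% of all matched promoters of tested genes and 2.32% of the whole table. Of genes that rose 3.10% held one, of genes that fell 6.34% and of genes not called 4.56%. The 250 bases before the start are shown for the helicase genes Mcm5, at chr8:75109259-75109508 (plus strand), and Mcm6, at chr1:128359706-128359955 (minus strand), both of which fell and hold more than 1 match; capitals mark the matches.
Mcm5: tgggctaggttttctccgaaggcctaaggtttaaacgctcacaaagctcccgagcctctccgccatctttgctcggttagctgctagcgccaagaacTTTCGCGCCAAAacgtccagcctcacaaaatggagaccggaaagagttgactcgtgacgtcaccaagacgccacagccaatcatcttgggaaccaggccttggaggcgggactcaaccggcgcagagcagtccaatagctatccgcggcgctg
Mcm6: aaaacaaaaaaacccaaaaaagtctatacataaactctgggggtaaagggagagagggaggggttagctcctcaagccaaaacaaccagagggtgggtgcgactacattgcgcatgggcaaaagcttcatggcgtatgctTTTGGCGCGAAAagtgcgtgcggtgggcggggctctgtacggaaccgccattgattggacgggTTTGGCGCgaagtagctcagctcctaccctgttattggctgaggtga

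Of 30 genes of G2/M and mitosis, 7 fell, 4 rose and 19 did not pass, with a median of -0.24. The counts are close to the 24.3% that fell and the 15.1% that rose among all genes, and the median to that of all genes. Bub1b, a spindle checkpoint kinase, fell from 150.01 TPM to 34.3 ± 2.53 TPM (SD, n = 3). Aurkb, the kinase of the chromosomal passenger complex, fell from 122 TPM to 34.5, 33.5 and 37.3 TPM. Cdk1, the mitotic kinase, fell from 80.3 TPM to 23.8, 21.4 and 25.03 TPM. Those that rose were Nusap1, which binds spindle microtubules, at 49.4 TPM at 0 h and 215, 200.0 and 246 TPM in the controls, and Tpx2, Ube2c and Cdc25c, with log2 fold changes of 1.11, 1.07 and 1.02; Nusap1 shares 172 bp of exon with Oip5. Cyclin messages Ccnb1, at 177 TPM at 0 h and 259, 262 and 273 TPM in the controls, and Ccna2, at 271 TPM at 0 h and 366, 357 and 409.6 TPM in the controls, were higher in every control but under 2-fold, and Top2a was at 197 TPM at 0 h and 218, 207 and 231 TPM in the controls.

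Cyclins and kinases of G1 mostly fell while inhibitors mostly rose. Of 15 cyclins, CDKs and E2F factors, 9 fell, 1 rose and 5 did not pass, with a median of -1.43. Cdk6 fell from 44.2 TPM to 3.54, 3.08 and 3.38 TPM (log2 change -3.38, limma adjusted p = 3.57e-06). Cdk4 fell from 516 TPM to 159, 154 and 162 TPM. Ccnd2 fell from 226 TPM to 38.3, 37.7 and 42.0 TPM. Ccnd3, the D cyclin of late red cell divisions, was at 118 TPM at 0 h and 192, 198 and 182 TPM in the controls, so Ccnd2 was above Ccnd3 at 0 h and below it in every control. Ccne1 just passed 2-fold upward, at 156 TPM at 0 h and 314, 314 and 321 TPM in the controls. Ccnd3 shares 361 bp of exon with Bysl on the other strand.

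Of 12 cell cycle inhibitors, 7 rose, 1 fell and 4 did not pass, with a median of 1.35. Btg2, an antiproliferative gene, rose from 18.1 TPM to 899, 863 and 879.9 TPM, a log2 change of 5.53 ± 0.0462 (SE; limma adjusted p = 1.13e-07). Cdkn1b, the CDK inhibitor p27, rose from 22.2 TPM to 211, 208 and 217 TPM. Cdkn2c, p18, rose from 64.9 TPM to 315, 305 and 285 TPM. Cdkn1a, p21, rose from 84.2 TPM to 209, 205 and 190.0 TPM. Tob2 and Cdkn2d had log2 fold changes of 2.26 and 1.73. Rbl1, the pocket protein p107, fell from 45.0 TPM to 19.6, 18.3 and 20.3 TPM. The 3 controls stood clear of the 0 h value in each of these genes.

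**Figure D5:**
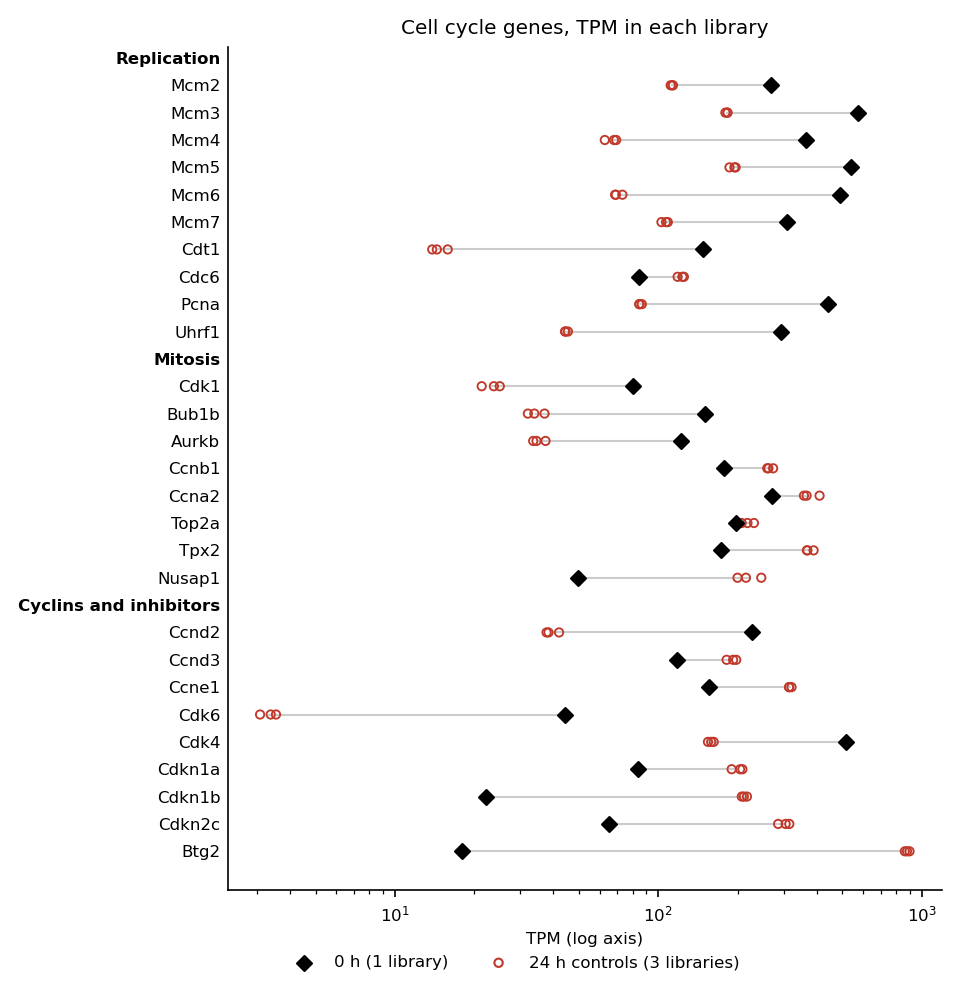
TPM of cell cycle genes on a log axis, with a black diamond for the 0 h library and open circles for each of the 3 controls at 24 h. Circles of the replication genes other than Cdc6 lie to the left of the diamond, those of the inhibitors Cdkn1a, Cdkn1b, Cdkn2c and Btg2 lie to the right, and the mitotic genes fall on both sides.

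Cytokine signalling genes moved both ways. Of 20, 6 rose, 4 fell and 10 did not pass, where 15.1% of all genes rose and 24.3% fell. The median was 0.57, which was 0.36 with a pseudocount of 5. Epor, the erythropoietin receptor, was at 162 TPM at 0 h and 147, 146 and 126 TPM in the controls and did not pass. Its kinase Jak2 was at 42.8 TPM at 0 h and 46.5, 45.1 and 51.7 TPM in the controls. Several targets and effectors rose: Pim1, a survival kinase, rose from 127 TPM to 523, 521 and 516 TPM. Cish, a feedback inhibitor, rose from 34.6 TPM to 113, 113 and 113 TPM. Erfe, the hormone erythroferrone that mobilises iron, rose from 4.21 TPM to 44.6, 44.1 and 41.6 TPM; Erfe shares 357 bp of exon with Ilkap. Stat5b rose from 58.9 TPM to 204, 201 and 198 TPM, while Stat5a, at 32.6 TPM at 0 h and 20.3, 19.1 and 19.2 TPM in the controls, was lower in every control without reaching 2-fold. Ptpn6, the phosphatase SHP-1 that damps cytokine signals, fell from 91.3 TPM to 2.82, 2.33 and 3.24 TPM. Igf1r, the receptor of insulin-like growth factor 1, fell from 11.4 TPM to 0.32, 0.22 and 0.26 TPM.

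In the BCL2 family and caspases, 3 of 19 rose, 4 fell and 12 did not pass, with a median of 0.35. These counts are close to the 15.1% that rose and the 24.3% that fell among all genes. Bcl2l1, which encodes BCL-XL, the survival protein of red cells, rose from 31.8 TPM to 155, 158 and 150.2 TPM (log2 change 2.24, limma adjusted p = 7.79e-07), while Bcl2, the founding member, fell from 3.46 TPM to 0.11, 0.11 and 0.13 TPM. Bid, a gene that links the 2 routes of apoptosis, fell from 65.2 TPM to 8.02, 7.49 and 7.81 TPM; it shares 628 bp of exon with Bcl2l13, a gene that rose. The initiators of the mitochondrial route, Casp9 and Apaf1, rose by 1.18 and 1.41 on the log2 scale.

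More autophagy genes rose than fell. Of 27, 14 rose, 1 fell and 12 did not pass, beside 15.1% and 24.3% of all genes, and the median was 1.04. The conjugation genes of autophagosomes included 3 that rose. Gabarap rose from 248.7 TPM to 1968, 1966 and 1981 TPM. Map1lc3a rose from 4.44 TPM to 53.5, 49.2 and 45.3 TPM. Map1lc3b rose from 30.6 TPM to 168, 175 and 168 TPM. Tfe3, a transcription factor of lysosomes, rose from 16.6 TPM to 182, 174 and 175 TPM, the largest rise of the list. Its relative Tfeb fell from 9.07 TPM to 2.58, 2.48 and 2.56 TPM. Wipi1 and Pink1, of membrane nucleation and of mitophagy, had log2 fold changes of 2.97 and 2.31. Bnip3l, the mitophagy receptor NIX that red cells need to lose mitochondria, rose from 192 TPM to 388, 402 and 414 TPM, just past 2-fold (limma adjusted p = 9.82e-06).

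Of 14 ubiquitin enzymes tied to red cell maturation, 8 rose, none fell and 6 did not pass, with a median of 1.24. Ube2l6 rose from 41.9 TPM to 753, 778 and 757 TPM. Rnf11 rose from 20.2 TPM to 137, 137 and 147 TPM. Ube2h rose from 21.7 TPM to 101, 105 and 107 TPM. Ubb, a ubiquitin gene, rose from 1461 TPM to 3314, 3279 and 3281 TPM. Ube2o, which remodels the proteome of reticulocytes, rose from 34.3 TPM to 89.7, 86.1 and 83.1 TPM. Trim58 was at 0.08 TPM at 0 h and listed at 0 in the controls.

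Genes of the nuclear lamina and chromatin condensation moved both ways. Of 13, 4 rose, 5 fell and 4 did not pass, where 15.1% of all genes rose and 24.3% fell. The median was 0.17. Sun2, of the bridge between nucleus and cytoskeleton, rose from 12.7 TPM to 260.3, 245 and 246 TPM. Lmna, lamin A and C, rose from 97.5 TPM to 935, 936 and 769 TPM. Lmnb1, lamin B1, went the other way, at 291 TPM at 0 h and 38.2, 38.5 and 28.9 TPM in the controls, so lamin A and C messages passed from below lamin B1 to above it. Kmt5a, a histone methylase of chromatin condensation, and Hdac2 fell, by 1.56 and 1.86 on the log2 scale.

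Some isoforms of glycolytic enzymes moved in opposite directions. Of 20 glycolysis genes, 3 rose, 5 fell and 12 did not pass, with a median of -0.34. The counts are close to the 15.1% that rose and the 24.3% that fell among all genes, so they are not read as a result about glycolysis as a group. Hk1 rose from 104 TPM to 744, 722 and 706 TPM. Hk2 fell from 26.1 TPM to 4.6, 4.91 and 5.1 TPM. Pfkm rose from 94.8 TPM to 518, 499 and 507 TPM. Pfkl fell from 44.2 TPM to 15.53, 17.3 and 14.8 TPM, so that in each pair one isoform rose and the other fell. Ldha, lactate dehydrogenase A, fell from 1315 TPM to 103, 102 and 102 TPM (log2 change -3.67, limma adjusted p = 2.14e-07). Pgk1, phosphoglycerate kinase, fell from 456 TPM to 76.9, 71.4 and 77.2 TPM. Of 21 genes of pyruvate oxidation and the TCA cycle, 8 fell, none rose and 13 did not pass, with a median of -0.77; 5 fell under median-of-ratios scaling. Idh2 and Suclg2 fell furthest there. Idh2, the mitochondrial isocitrate dehydrogenase that makes NADPH, fell from 26.4 TPM to 1.46, 1.06 and 1.26 TPM. Suclg2, a subunit of succinyl-CoA ligase, fell from 97.8 TPM to 10.7, 9.27 and 11.03 TPM.

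Few respiratory chain genes passed. Of 34 nuclear-encoded subunit genes, 4 fell, 1 rose and 29 did not pass, with a median of -0.45. None of 13 mitochondrial genome genes passed. Of all genes, 24.3% fell and 15.1% rose, together 39.4%. Cox6a1, of complex IV, rose from 1009 TPM to 2451, 2568 and 2156 TPM. Ndufs7, of complex I, fell from 173 TPM to 73.5, 72.9 and 58.0 TPM, the largest fall of the list. The mitochondrial row mt-Co1 was at 18859.8 TPM at 0 h and 26717, 25677 and 29303 TPM in the controls, above the 0 h value in every control. The row mt-Nd1 was at 24139 TPM at 0 h and 16989.7, 16902 and 18759 TPM in the controls, below it in every control, and both stayed under 2-fold.

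Several peroxide-removing enzymes rose. Of 22 redox genes, 6 rose, 4 fell and 12 did not pass, where 15.1% of all genes rose and 24.3% fell. The median was 0.35, and 2 fell under median-of-ratios scaling. Cat, catalase, rose from 195 TPM to 876, 882 and 889 TPM. Prdx2, the abundant peroxiredoxin of red cells, rose from 529 TPM to 2376, 2424 and 2314 TPM. Gpx1, glutathione peroxidase, rose from 1724 TPM to 4529, 4596 and 4103 TPM. Prdx4, of the endoplasmic reticulum, fell from 68.7 TPM to 35.6, 29.5 and 30.5 TPM. Sod2, the mitochondrial superoxide dismutase, fell from 54.7 TPM to 14.9, 13.2 and 13.8 TPM. Gsr, glutathione reductase, fell from 165 TPM to 71.2, 69.6 and 68.7 TPM. Prdx2 shares 177 bp of exon with Rnaseh2a.

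Of 21 cholesterol synthesis genes, 6 rose, 1 fell and 14 did not pass, where 15.1% of all genes rose and 24.3% fell. The median was 0.78. Srebf2, the master regulator of the pathway, rose from 183 TPM to 540.3, 517 and 486 TPM. Fdft1, squalene synthase, rose from 197 TPM to 527, 552 and 555 TPM. Ebp rose from 67.1 TPM to 221, 218 and 218 TPM. Fdft1 shares 774 bp of exon with Ctsb, which also rose, from 85.0 TPM to a mean of 749 TPM. Dhcr7, of the last step, fell from 105 TPM to 49.0, 51.5 and 51.8 TPM.

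Most heat shock chaperone genes fell. Of 14 heat shock genes, 8 fell, 1 rose and 5 did not pass, with a median of -1.22. Hsp90ab1, the constitutive HSP90, fell from 4361 TPM to 628, 656 and 662 TPM. Hspd1, the mitochondrial chaperonin, fell from 2250.1 TPM to 268, 265 and 297 TPM. Hspa9 and Hsp90aa1 had log2 fold changes of -2.75 and -2.18. Dnaja1 rose from 109 TPM to 241, 241 and 248.7 TPM.

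Stress genes moved both ways. Of 15 genes of the integrated stress response, 5 rose, 5 fell and 5 did not pass, with a median of -0.48. Of all genes, 15.1% rose and 24.3% fell. Ppp1r15a, which restores translation, rose from 63.3 TPM to 922, 909 and 865 TPM. Eif2ak1, the heme-regulated kinase of red cells, rose from 68.0 TPM to 486, 491 and 526 TPM; exons of Eif2ak1 share 487 bp with Aimp2. Ddit3, the factor CHOP, rose from 66.2 TPM to 351, 335 and 336 TPM; its exons overlap Mars1. Among those that fell, Asns, asparagine synthetase, fell from 1027 TPM to 413, 411 and 429 TPM. Psat1, of serine synthesis, fell from 448 TPM to 131, 136 and 141 TPM. Shmt2, of mitochondrial one-carbon metabolism, fell from 776 TPM to 181, 171 and 179 TPM. Atf4 itself, the central transcription factor, was at 160.2 TPM at 0 h and 86.4, 88.5 and 94.0 TPM in the controls, lower in every control and under 2-fold. Among p53 targets 5 of 16 rose and 2 fell, beside 15.1% and 24.3% of all genes, with a median of 0.75. Btg2 and Cdkn1a are also in the inhibitor list, and Trp53inp1 rose from 8.73 TPM to 145, 150.03 and 159.7 TPM.

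Most adhesion and surface genes fell. Of 12 tested, 8 fell, 1 rose and 3 did not pass, with a median of -2.00, which was -0.94 with no filter on low values and -1.22 with a pseudocount of 5. Spn, the sialophorin CD43, fell from 291 TPM to 8.12, 7.84 and 8.7 TPM (log2 change -4.99, limma adjusted p = 4.19e-07). Itga4, the integrin that binds fibronectin and macrophages in erythroblastic islands, fell from 72.2 TPM to 14.7, 13.7 and 14.1 TPM. Icam2 fell from 54.3 TPM to 7.09, 8.55 and 8.0 TPM. Cd24a, a glycoprotein lost late in maturation, was at 719 TPM at 0 h and 606, 599 and 633 TPM in the controls, under 2-fold. Itgb2 rose from 5.1 TPM to 13.8, 14.7 and 14.6 TPM.

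Among 8 carbonic anhydrase and aquaporin genes, 2 rose, 3 fell and 3 did not pass, where 15.1% of all genes rose and 24.3% fell. Car2, the main carbonic anhydrase of mature red cells, rose from 2360.2 TPM to 4940.2, 5002 and 4968 TPM (log2 change 1.07, limma adjusted p = 1.04e-05). With Car1 given above, the more abundant of the pair was Car1 at 0 h and Car2 in every control. Aqp8 and Car2 rose, Car1, Car3 and Aqp3 fell, and Aqp1, the water channel of red cells, was listed at 0.

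Among ZIP zinc importers 2 of 9 rose, 3 fell and 4 did not pass, and among ZnT exporters 1 of 7 rose, 1 fell and 5 did not pass, where 39.4% of all genes were called, so the counts are not read as a result about zinc transporters as a group. Slc39a10 fell from 37.3 TPM to 1.24, 1.21 and 1.04 TPM (log2 change -4.15, limma adjusted p = 8.52e-07). Slc39a8 moved the other way and rose from 42.7 TPM to 296, 291 and 306 TPM (log2 change 2.77, limma adjusted p = 7.07e-07). Slc39a13, the other importer gene called higher, rose from 4.41 TPM to 10.2, 9.44 and 9.87 TPM, at the edge of 2-fold; without control replicate 1 or 3, with a pseudocount of 5 and under the test against 2-fold, 1 importer gene rose. Slc39a10 was thus close to Slc39a8 at 0 h and far below it in every control. The exporter gene Slc30a9 rose from 20.3 TPM to 43.2, 45.0 and 48.3 TPM; the call was lost with a pseudocount of 5 and in a test against a 2-fold threshold (limma's treat, adjusted p = 0.193). Slc30a2 fell from 8.07 TPM to 1.11, 1.2 and 1.15 TPM. The median of the exporters, -0.04, turned positive after quantile normalization (0.23), after median-of-ratios scaling (0.11) and with globin genes left out (0.02), so its sign depended on scaling. Slc30a1, the exporter at the cell surface, was at 14.4 TPM at 0 h and 29.2, 30.7 and 27.9 TPM in the controls, just under 2-fold (0.97), and passed under both of these scalings and without control replicate 3 (1.01). Mtf1, the zinc-sensing transcription factor that drives metallothionein genes, rose from 12.4 TPM to 27.7, 28.9 and 26.8 TPM, with 721 bp of its exons opposite those of 1110065P20Rik. Its log2 fold change of 1.10 was 0.91 with a pseudocount of 5, and under treat its limma adjusted p was 0.466, so the call was lost under both. The zinc-binding metallothioneins were abundant at both times. Mt1 was at 1305 TPM at 0 h and 2549, 2686 and 2159.8 TPM in the controls. Mt2 was at 2018 TPM at 0 h and 2769, 2897 and 2592 TPM in the controls, and neither reached 2-fold; Mt1 did without control replicate 3 (1.00) and under both scalings.

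Genes often used as references were not level. Of 12, 6 fell, 1 rose and 5 did not pass, with a median of -0.88. Actb, given above, and Gapdh, at 104 TPM at 0 h and 96.1, 91.8 and 93.3 TPM in the controls, differed little between the 2 times. Hprt fell from 301 TPM to 92.2, 93.1 and 98.6 TPM. Gusb fell from 57.8 TPM to 7.42, 8.11 and 8.46 TPM, and B2m rose from 868 TPM to 2807, 2943 and 3036 TPM.

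By type of gene, 15.6% of 9288 protein-coding genes rose and 25.2% fell. Of 228 antisense genes, 63 rose (27.6%) and 25 fell, and of 1009 processed pseudogenes 5.45% rose and 23.8% fell. Whether the authors' counting used the strand is not given in the sources used here, so antisense values can hold reads of the gene across from them.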

How the data were processed

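RNA from G1E-ER4 cells was extracted with a Direct-zol kit and made into stranded polyadenylated RNA libraries (TruSeq), per the labels' protocols. Per the submitters' processing notes, Trimmomatic 0.33, FastQC, HISAT2 2.1.0, featureCounts and edgeR were used with mm10. Not given in the sources used here are the annotation release, gene lengths, strand setting and handling of reads that match several places. The values deposited by the authors are TPM, 1 table per library, with 55487 rows; 114 symbols stood on 234 rows, which were summed. TPM carry no counts, and depth was estimated from the steps between low values, of which 99.3% to 99.5% were whole reads within 0.1 in the 4 libraries compared.

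Groups came from the labels. Limma 3.58.1 in R 4.3.3 was fitted to log2(TPM + 1), with a variance trend, over all 7 libraries in 3 groups, and the contrast was 24 h controls minus 0 h, two-sided. Fold changes on this scale understate those of low genes. Genes were called at a Benjamini-Hochberg adjusted p under 0.05 and at least 2-fold. An exact permutation test of 1 library against 3 cannot go below p = 0.5 when two-sided, so no single-gene permutation test was run. Simulated data for this comparison held 11059 genes, with 50 changed at each fold and the 0 h library given the spread of the replicated groups. The fit recovered 0% of genes changed 1.5-fold, 22% at 2-fold, 82% at 4-fold and 94% at 8-fold. A 2-fold change in TPM falls short of the 2-fold cut on the log2(TPM + 1) scale, which limits recovery there beforehand. Of its 103 calls, 3.88% were on unchanged genes. The data gave 4688 calls and can differ in scaling, so this share is not their rate of false calls.

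The genes compared and the 43 gene lists (773 different genes, some in several lists) were chosen with earlier results of these data known. Named genes are the 15 largest rises and falls with at least 5 TPM on the higher side, the 4 called genes of every list that changed most, all detected members of the globin, heme synthesis, band 3, metallothionein and MYC lists, a fixed set of regulators, the 10 most abundant at each time, and genes with extreme spread, smallest change or a 0 on one side. Other list members were named after their values were seen. Some genes that meet the rule are not reported here. Of the 248 genes named by rule, 65 have their largest exon overlap with a gene on the other strand. Smaller overlaps on the other strand, as of Tmem184a with Mafk, are not in this count. The strand setting is not given, so reads of such a pair may be mixed. Rows can still differ widely where all exons of a named gene overlap. Mir451a averaged 142 TPM in the controls and Mir451b 0, and Icam4 averaged 138 TPM and Gm47079 0.953. How reads of such pairs were assigned was not tested. Alternatives covered pseudocounts, filters, scaling, the fit and leaving out each control. The 0 h library cannot be left out.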

Additional observations from a re-analysis of the deposited data

How the results depend on the processing

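Under 16 alternatives no called gene changed sign. The counts of genes that rose and fell, 1794 and 2894, stayed within 1.5 times under all but a test against a 2-fold threshold (limma's treat), which is stricter by construction and gave 1190 and 1767. Leaving out each control in turn gave 1766 to 1813 rises and 2864 to 2894 falls. Pseudocounts of 0.1, 0.5 and 5 gave 2020, 1931 and 1276 rises. Of 194 called genes among those named by rule, 177 kept their call in every alternative. The calls lost include Hbb-bt (limma adjusted p = 0.0621 with no filter on low values), Tfrc, Alas1 (-0.78 with a pseudocount of 5) and Bnip3l, under treat. Of 41 list medians, that of the ZnT exporters changed sign; some other medians moved by over 1.5 times without the filter on low values or with a pseudocount of 5, as for megakaryocyte markers (-1.71, against -0.62 and -0.94). List counts that moved by over 1.5 times include falls among respiratory chain genes (2 of 34 under median-of-ratios scaling, against 4) and redox genes (2 of 22, against 4), and rises in the BCL2 list (5, against 3). The cause was not tested. Depth limits low genes: Tubb1 and Dhrs3 rest on about 4 reads each at 0 h.

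Replicate numbers showed no sign of pairing control with DTPA libraries, which cannot tell how the samples were prepared. The 0 h group shares only number 1 with the controls, and same-numbered control and DTPA libraries deviated with correlations of -0.012, 0.025 and -0.011. A fit with the replicate number as a block gave 1737 rises and 2899 falls.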

Other observations

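A few genes varied widely among the 3 controls. In 5570 genes whose controls averaged 20 TPM or more, the median coefficient of variation was 4.30%. The 5 most variable were Gm10705, Gm24270, Gm26202, Gm8034 and Rps27a-ps2. Gm10705 was at 22.4 TPM at 0 h and 9.28, 23.4 and 40.8 TPM in the controls. Gm8034 was at 3.85 TPM at 0 h and 38.6, 13.0 and 10.4 TPM in the controls.

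The remaining genes with a 0 on one side were these. Csta2, a stefin, was at 22.4, 20.4 and 22.5 TPM in the controls, and the non-coding rows Gm44698 and Gm4316 were at 10.7, 12.1 and 16.04 and 11.3, 11.5 and 10.9 TPM, all listed at 0 at 0 h. In the other direction G430095P16Rik was at 27.7 TPM at 0 h, Snord91a at 16.4, Snord70 at 15.6 and CR974473.1 at 12.6, all listed at 0 in the controls. The short rows Snord91a and Snord70 rest on an estimated 9 and 8 reads at 0 h.

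The other genes among the 10 with the smallest change were Hnrnpl, at 244 TPM at 0 h and 248, 234 and 254 TPM in the controls, Lsm14b, Ndufs5, Sc5d, Tjp1 and Vamp3. They came from 2338 genes of at least 50 TPM on both sides.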
